A study of Mus musculus with 12 samples.

Results

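Macrophages sorted from the mammary ducts of mice were compared between the developed gland, at day 16.5 of pregnancy or in lactation, and the resting gland, virgin or 1 month after weaning. All 12 libraries of the series enter, 6 on each side: 3 pregnant and 3 lactating against 3 virgin and 3 post-weaning. The genes described are those whose levels at both developed stages differed from those at both resting stages in the same direction. A gene was called stage-consistent when it passed edgeR's quasi-likelihood test of developed against resting, at a Benjamini-Hochberg adjusted p under 0.05, and when each of the 4 stage pairs had the same sign and an unadjusted p under 0.05. Of the 27179 genes counted, 12672 had enough reads to test, and 60 were stage-consistent. The mice were C57BL/6, and no treatment or engineered allele is given for any group. Each library was made from 2000 sorted cells by a full-length, low-input cDNA method without molecular identifiers. The sources used here do not give the day of lactation, how many mice a library holds, or the gates of the sort.

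The mammary epithelium grows and branches during pregnancy, secretes milk in lactation and is removed after weaning, when the gland returns to a form like that of the virgin. Ductal macrophages lie within the epithelial bilayer, sample it with long processes and take up dying cells. Immediate early genes such as Fos and Egr1 are transcribed within minutes of a stimulus, and tissue dissociation is known to be such a stimulus in macrophages.

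Library totals ran from 6926273 to 21204704 gene counts, and 10178 to 13790 genes had at least 1 count. CPM below are edgeR's CPM, which scale counts by the TMM-adjusted library size, log2 fold changes are developed minus resting with their standard error, and adjusted p-values come from edgeR unless another tool is named. The p-values measure the spread between samples labelled biological replicates, and counting bounds cover counting error only. Macrophage identity genes took 3.79 to 5.20% of the counts in resting and 2.10 to 7.24% in developed libraries. Adgre1, which encodes F4/80, ran from 263 to 981 CPM in developed and from 680.4 to 820.3 CPM in resting libraries, and Lyve1, a marker of stromal macrophages, had 0 counts in all 12. Lactating replicate 3 stood apart. It had the fewest genes detected. Milk protein and secretory epithelium genes took 8.58% and macrophage identity genes 2.10% of its counts. The milk and secretory shares were 0.278 and 0.252% in Lactating replicates 1 and 2.

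In developed against resting libraries 149 genes (1.18% of those tested) changed, 58 higher (0.458%) and 91 lower (0.718%). The 60 stage-consistent genes were 0.473% of those tested, 25 higher (0.197%) and 35 lower (0.276%), and 59 of them are protein-coding. The 6 developed libraries did not overlap the 6 resting ones for 53 of the 60, against 207 of all genes tested (0.687% higher, 0.947% lower without overlap). Within the sides, lactating and pregnant libraries differed in 488 genes (3.85%), 6 of the 60 among them. Post-weaning and virgin libraries differed in 0 genes by edgeR, with 765 at an unadjusted p under 0.05, while DESeq2 called 123 and limma-voom 11. The stricter question of whether all 4 stage differences are nonzero, tested with the largest of the 4 p-values adjusted over all genes, called 0 genes by edgeR, with 129 at an unadjusted p under 0.05, against 17 by DESeq2 and 1 by limma-voom. The members therefore rest on the averaged contrast, and the 4 pairs, which share libraries, act as a filter. Without Lactating replicate 3 the test called 431 genes, 145 of them stage-consistent, and the sets included all 149 and 56 of the 60.

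**Figure D1:**
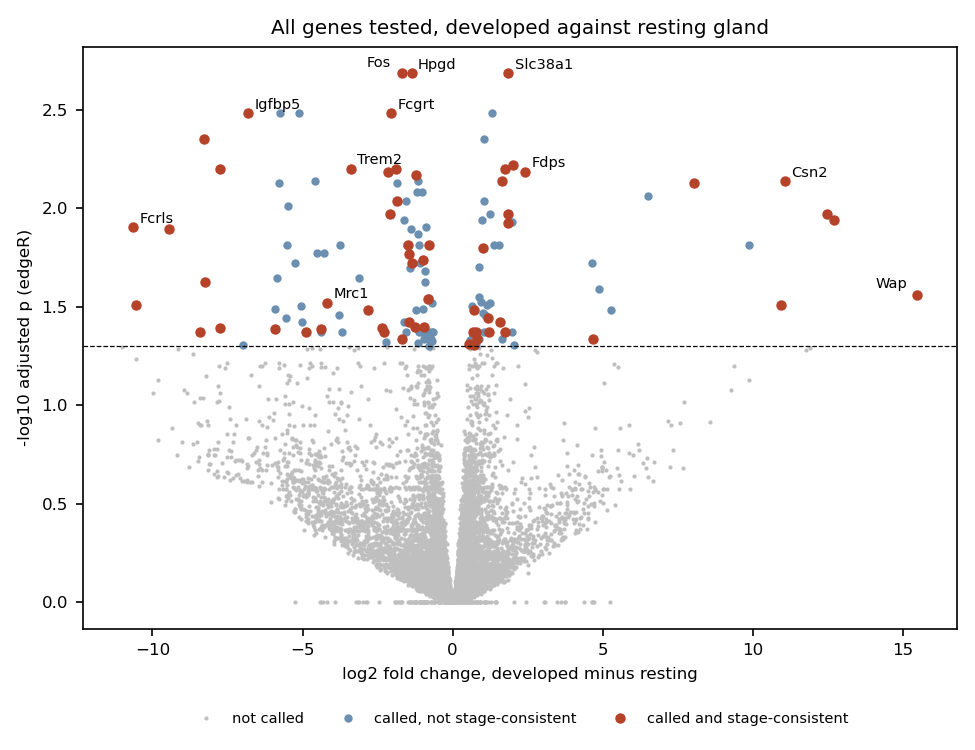
Each point is 1 of the 12672 genes tested, with the log2 fold change of developed minus resting libraries on the x axis and the -log10 adjusted p of edgeR on the y axis (dashed line at 0.05). Red points are the 60 stage-consistent genes and blue points the other called genes; fitted fold changes of genes absent from a side, such as Wap and Fcrls, depend on the prior count and are not measured sizes.

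Transcripts of 3 immediate early genes, Fos, Egr1 and Ier2, were lower at both developed stages. Fos, the AP-1 subunit gene (chromosome 12, 85473890 to 85477274, GRCm38.p6), had 1375, 1731 and 1979 CPM in the virgin, 2132, 1672 and 1528 in the post-weaning, 610.3, 438 and 547 in the pregnant and 618, 492 and 541 in the lactating libraries. All 6 developed libraries lay below all 6 resting ones, and Fos fell by 1.68 ± 0.16 on the log2 scale (adjusted p = 0.00207). The 4 stage pairs of Fos lay between -1.74 and -1.62, with nothing called between pregnancy and lactation. Fos, Hpgd, Slc38a1 and Fabp3 were the 4 of the 60 genes that passed the adjusted test in each of the 4 pairs. Egr1, a zinc finger transcription factor gene, had 977, 1797 and 1797 CPM in the virgin, 1308, 1136 and 1072 in the post-weaning, 318, 230.2 and 237 in the pregnant and 601, 269 and 659 in the lactating libraries. All 6 developed libraries lay below all 6 resting ones, the pregnant ones lowest (log2 fold change -1.87 ± 0.24, adjusted p = 0.0063). Ier2, another immediate early regulator, ran at 115 to 273 CPM in the developed and 364 to 641 CPM in the resting libraries, without overlap (log2 fold change -1.47 ± 0.24, adjusted p = 0.0155). The promoter of Fos is printed as the start of the most abundant of these genes. It covers 250 bases before to 50 after the start, from RefSeq on GRCm38.p6, and held none of the 7 motifs searched, so no letters are in capitals.
Fos promoter, chr12:85473640-85473939, plus strand: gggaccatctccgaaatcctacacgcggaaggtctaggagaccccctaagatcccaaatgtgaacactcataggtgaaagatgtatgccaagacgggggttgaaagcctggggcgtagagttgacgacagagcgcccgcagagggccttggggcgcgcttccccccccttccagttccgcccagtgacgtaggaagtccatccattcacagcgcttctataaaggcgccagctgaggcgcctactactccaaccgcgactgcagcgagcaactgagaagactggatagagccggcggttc

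Of 33 immediate early and dissociation stress genes tested, 12 fell and 0 rose, against 0.718 and 0.458% of all genes, and their median log2 fold change was -0.78 against -0.04 over all genes. Their summed share of counts was 0.640 to 1.39% in the developed and 1.55 to 2.63% in the resting libraries, without overlap. The members that fell include the feedback genes Btg2 (-1.17 ± 0.16, adjusted p = 0.0073) and Dusp1 (-1.11 ± 0.23, adjusted p = 0.0427) and the nuclear receptor gene Nr4a1 (-1.21 ± 0.23, adjusted p = 0.0328), none of them stage-consistent. The 2 developed stages differed here. List medians were -1.47 and -1.51 for pregnancy against virgin and post-weaning, and -0.38 and -0.08 for lactation. Lactating libraries were higher than pregnant ones for 10 of the 33, among them Btg2, Dusp1 and Nr4a1, against 336 of all 12672 genes. For Fos the 2 stages differed by 0.05 ± 0.21, lactating minus pregnant (adjusted p = 0.946). The list is also a marker of handling during dissociation, whose part in the difference was not tested. The count of 12 was 18 without Lactating replicate 3, 7 without Pregnant replicate 1, 3 without Pregnant replicate 2 and 6 without any 1 of Virgin 2, Virgin 3, the 3 post-weaning libraries, Pregnant 3 or Lactating 2. Fos and Egr1 kept their call in all 12 such fits, and Ier2 reached adjusted p = 0.0551 without Pregnant replicate 2.

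**Figure D2:**
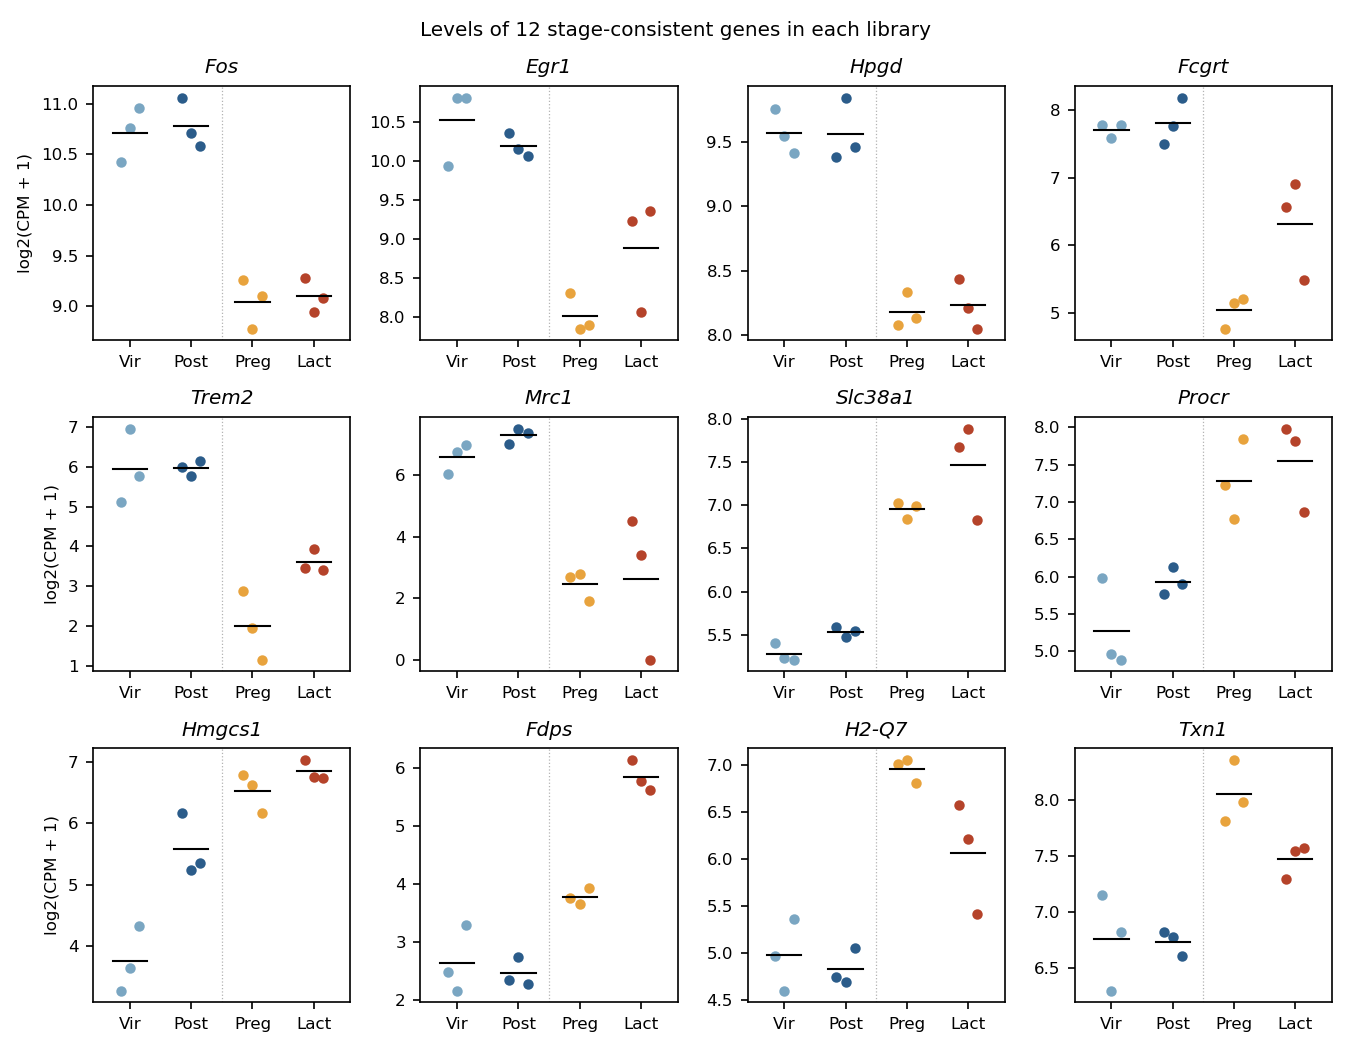
Each panel shows 1 stage-consistent gene, with log2(CPM + 1) on the y axis for the 3 libraries of each stage (points) and their mean (bar), resting stages left of the dotted line and developed stages right. The y axes do not start at 0; Fos and Hpgd show 1 level on each side, while Fcgrt and Fdps also differed between pregnant and lactating libraries (lactating minus pregnant 1.40 and 2.15).

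Hpgd, which encodes the enzyme that inactivates prostaglandin E2 (chromosome 8, 56294552 to 56321046), had 865, 746 and 680.1 CPM in the virgin, 667, 919 and 704 in the post-weaning, 269, 322 and 280.3 in the pregnant and 345, 294 and 264 in the lactating libraries. Its 2 sides did not overlap, and its 4 stage pairs ranged from -1.39 to -1.34 (log2 fold change -1.37 ± 0.14, adjusted p = 0.00207). Fcgrt, the heavy chain gene of the neonatal Fc receptor, had 217, 191 and 217 CPM in the virgin, 179, 216 and 289 in the post-weaning, 26.2, 34.5 and 35.99 in the pregnant and 93.6, 119 and 43.9 in the lactating libraries. Pregnant libraries were lowest and lactating ones lay between them and the resting libraries (log2 fold change -2.05 ± 0.24, adjusted p = 0.00331), and the 2 developed stages differed, by 1.40 lactating minus pregnant (adjusted p = 0.0365). Hpgd and Fcgrt kept their call whichever library was left out.

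Trem2, a receptor gene for lipids and apoptotic cells (chromosome 17, 48346401 to 48352276), had 33.4, 123 and 53.7 CPM in the virgin, 62.1, 53.2 and 69.7 in the post-weaning, 6.45, 2.87 and 1.24 in the pregnant and 10.05, 14.4 and 9.65 in the lactating libraries. Every developed library was below every resting library (log2 fold change -3.38 ± 0.44, adjusted p = 0.0063). The lactating minus pregnant difference of 1.71 did not pass the test (adjusted p = 0.151). The Trem2 promoter is shown because it held an AP-1 motif, TGANTCA, 9 bases before the start, in capitals.
Trem2 promoter, chr17:48346151-48346450, plus strand: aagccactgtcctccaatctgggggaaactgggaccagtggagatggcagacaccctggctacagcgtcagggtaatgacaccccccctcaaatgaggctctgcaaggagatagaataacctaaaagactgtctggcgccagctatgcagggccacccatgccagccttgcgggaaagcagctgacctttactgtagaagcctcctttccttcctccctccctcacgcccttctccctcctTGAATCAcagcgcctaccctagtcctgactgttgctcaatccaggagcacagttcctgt
Of the 40 stage-consistent genes with a RefSeq promoter, 19 higher and 21 lower, this motif was in 2 and 2, the latter Trem2 and the formin gene Fmnl3, and it was in 7.93% of all 27025 promoters. A match is a description of letters and not a bound site.

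Mrc1, the mannose receptor CD206 and a marker of stromal macrophages, had 64.6, 108 and 124 CPM in the virgin, 129, 183 and 166 in the post-weaning, 5.45, 5.85 and 2.73 in the pregnant and 21.7, 9.68 and 0 in the lactating libraries. Lactating replicate 3 had 0 counts, and no developed library reached the lowest resting one (log2 fold change -4.18 ± 0.78, adjusted p = 0.0301). Fcrls, an Fc receptor-like gene of microglia and other resident macrophages, had 0 counts in all 6 developed libraries and 4.36, 47.4 and 31.2 CPM in the virgin and 23.99, 7.04 and 5.10 CPM in the post-weaning libraries. It was at least 464-fold lower in pooled counts, against a floor of 3 counts over the developed side, or 290.3-fold without Pregnant replicate 3 (adjusted p = 0.0125). Adgre4, an adhesion receptor gene of the F4/80 family, ran at 3.12 to 35.6 CPM in the developed and 63.6 to 183 CPM in the resting libraries (log2 fold change -2.81 ± 0.54, adjusted p = 0.033). Cx3cr1, the fractalkine receptor gene, fell less (log2 fold change -0.70 ± 0.14, adjusted p = 0.0427). It was not stage-consistent, since pregnancy against virgin gave -0.37 (unadjusted p = 0.0935). In these bulk libraries fewer cells of a type and less RNA per cell cannot be told apart. Trem2 and Fcrls kept their call in all 12 fits that left out 1 library, while Mrc1 and Adgre4 lost theirs in 9 and 9 of them (adjusted p up to 0.113 without Pregnant replicate 3 and 0.107 without Pregnant replicate 2) and Cx3cr1 in 10 (up to 0.114 without Post-weaning replicate 3).

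Members called in the wider macrophage lists stand against 0.458% of all genes higher and 0.718% lower. Of 22 macrophage identity genes 0 rose and 1 fell, Cx3cr1, and their median was 0.01, or -0.03 with RLE scaling. Of 12 stromal and perivascular macrophage genes tested, 1 fell, Mrc1, with a list median of -0.92. Of 18 ductal and CD11c-positive macrophage genes, Trem2 and Fcrls fell and Acp5 rose, around a median of -0.06. Acp5, the acid phosphatase TRAP of lysosomes, rose (log2 fold change 1.23 ± 0.19, adjusted p = 0.0106) but missed the pair of pregnancy against post-weaning (0.57, unadjusted p = 0.0521). Of the genes followed at all stages, Cd74 (-0.18 ± 0.29, adjusted p = 0.853), Adgre1 (-0.17 ± 0.27, adjusted p = 0.841), Csf1r (0.25 ± 0.25, adjusted p = 0.729) and Itgax (0.69 ± 0.20, adjusted p = 0.149) did not pass the test, nor did the matrix protease gene Mmp14 (0.39 ± 0.22, adjusted p = 0.458) or the proliferation gene Mki67 (0.80 ± 0.49, adjusted p = 0.498). Cd74 was 0.03 under limma-voom with quality weights, also without a call.

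Hes1, a repressor gene downstream of Notch, had 72.8, 87.2 and 71.7 CPM in the virgin, 107, 55.5 and 57.4 in the post-weaning, 28.6, 34.5 and 51.2 in the pregnant and 11.8, 5.48 and 5.62 in the lactating libraries. It was lower on the developed side without overlap (log2 fold change -2.14 ± 0.29, adjusted p = 0.00652), and lower again in lactation than in pregnancy, by -2.33 (adjusted p = 0.00913). Id3, which encodes an inhibitor of DNA-binding helix-loop-helix factors, went the other way within the developed side. It had 48.7, 26.4 and 80.6 CPM in the virgin, 58.9, 61.2 and 60.6 in the post-weaning, 5.78, 10.1 and 4.85 in the pregnant and 26.9, 18.8 and 30.4 in the lactating libraries, a fall overall (log2 fold change -2.08 ± 0.31, adjusted p = 0.0106) with lactation above pregnancy by 1.88 (adjusted p = 0.0368). Its developed and resting libraries overlapped, since Lactating replicates 1 and 3 lay above Virgin replicate 2.

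Osm, the gene of the cytokine oncostatin M, ran at 37.5 to 129.6 CPM in the developed and 136 to 217 CPM in the resting libraries (log2 fold change -1.37 ± 0.24, adjusted p = 0.019). Il10ra, the ligand-binding chain of the interleukin-10 receptor, ran at 143 to 234 CPM in the developed and 241 to 379 CPM in the resting libraries (log2 fold change -0.81 ± 0.15, adjusted p = 0.0287). Neither gene overlapped between sides. Plxdc2, a plexin-domain membrane protein gene, fell from 79.7 to 193 CPM at rest to 17.2 to 58.4 CPM (log2 fold change -1.85 ± 0.27, adjusted p = 0.00917). Exoc6, an exocyst subunit gene, ran at 35.98 to 48.7 CPM in the developed and 76.3 to 127 CPM in the resting libraries (log2 fold change -1.22 ± 0.17, adjusted p = 0.0068). Both kept their call under each other tool, scaling, filter and model and each left-out library. Wsb1, a SOCS-box protein gene, fell (log2 fold change -0.98 ± 0.17, adjusted p = 0.0183), as did Zfp36l2, an mRNA decay factor gene (log2 fold change -0.78 ± 0.13, adjusted p = 0.0155). Without 1 library Osm reached adjusted p = 0.0682, Il10ra 0.0904, Wsb1 0.0682 and Zfp36l2 0.0582.

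Gipc2, a PDZ-domain gene, and Hs3st1, a heparan sulfate sulfotransferase gene, were at 0 counts in all 6 developed libraries, at least 221- and 87.8-fold lower (adjusted p = 0.0128 and 0.0427). Without Pregnant replicate 3 the bounds were 138 and 54.95, and without Virgin replicate 3 that of Gipc2 was 138. Hacd4, a gene of fatty acid elongation, Fmnl3, the GTPase gene Rrad, Ipcef1 and 0610040J01Rik fell by 0.95, 1.68, 1.26, 2.37 and 1.46 on the log2 scale, with adjusted p from 0.0376 to 0.0463. Each of these 5 lost its call in 8 to 10 of the fits that left out 1 library, and the highest adjusted p among them was 0.122, for Fmnl3 without Pregnant replicate 3. Hs3st1 reached 0.115 without Pregnant replicate 3.

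**Figure D3:**
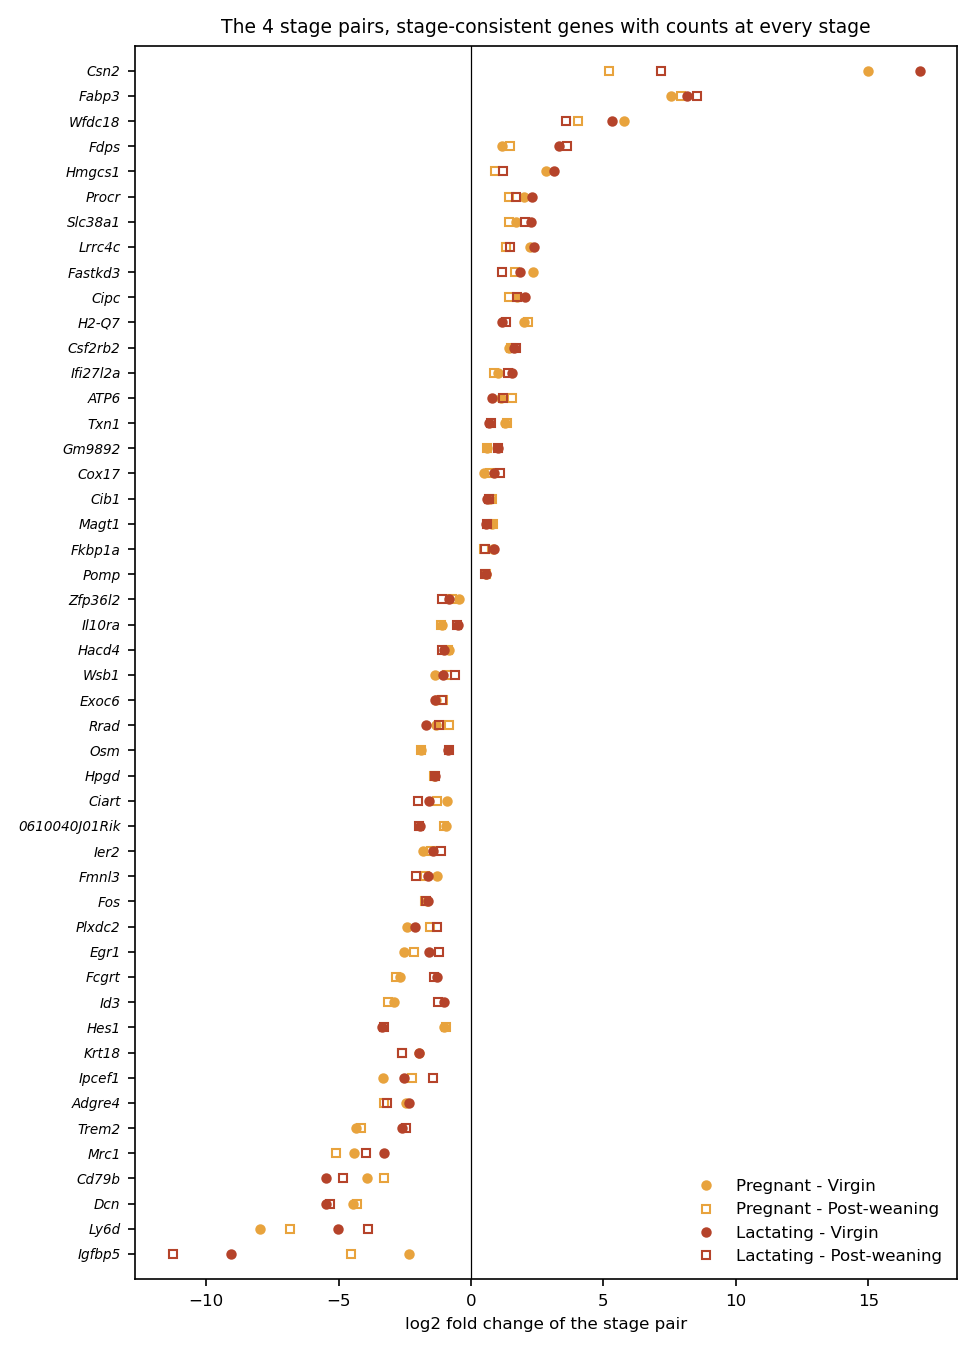
Rows are the 48 stage-consistent genes with counts at every stage, and the x axis is the log2 fold change of each of the 4 stage pairs (circles against virgin, squares against post-weaning, orange for pregnancy, red for lactation). All points of a gene lie on the same side of 0 by the rule that chose them; Fos and Hpgd have the 4 points close together, while Igfbp5, Hes1 and Csn2 have them spread out.

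On the side of the rises, Slc38a1 had the smallest adjusted p. This transporter gene for glutamine and other small neutral amino acids (chromosome 15, 96571418 to 96643438) had 41.4, 36.4 and 35.97 CPM in the virgin, 47.1, 43.5 and 45.6 in the post-weaning, 129.8, 113 and 126 in the pregnant and 204, 236 and 113 in the lactating libraries. The resting libraries lay close together, all developed ones lay above them, and Lactating replicates 1 and 2 were highest (log2 fold change 1.86 ± 0.18, adjusted p = 0.00207). Procr, the gene of the endothelial protein C receptor, also a marker of mammary progenitor cells, had 62.1, 30.2 and 28.5 CPM in the virgin, 53.2, 68.7 and 58.6 in the post-weaning, 149, 108 and 228 in the pregnant and 252, 224 and 116 in the lactating libraries. It rose without overlap (log2 fold change 1.86 ± 0.28, adjusted p = 0.0106). Csf2rb2, a signalling chain gene of the interleukin-3 receptor, ran at 62.6 to 132 CPM in the developed and 17.2 to 41.7 CPM in the resting libraries (log2 fold change 1.58 ± 0.31, adjusted p = 0.0376), and its paralog Csf2rb is similar in sequence, so its counts are uncertain. Lrrc4c, the netrin-G1 ligand gene, ran at 36.1 to 61.03 CPM in the developed and 5.63 to 24.98 CPM in the resting libraries (log2 fold change 1.84 ± 0.29, adjusted p = 0.0118). Slc38a1, Procr and Lrrc4c kept their call whichever library was left out, and Csf2rb2 lost it in 10 of 12 such fits (adjusted p up to 0.118 without Pregnant replicate 3).

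Cholesterol synthesis supplied 2 members, Hmgcs1 and Fdps, both enzymes of the mevalonate pathway. Hmgcs1 (chromosome 13, 119690351 to 119708260) had 8.61, 11.5 and 19.1 CPM in the virgin, 71.3, 36.7 and 39.8 in the post-weaning, 109.5, 97.5 and 70.6 in the pregnant and 131, 108 and 105 in the lactating libraries. Post-weaning libraries lay between virgin and developed ones, and Post-weaning replicate 1 overlapped Pregnant replicate 3 (log2 fold change 2.02 ± 0.26, adjusted p = 0.00602). Fdps had 4.59, 3.49 and 8.77 CPM in the virgin, 4.12, 5.71 and 3.89 in the post-weaning, 12.6, 11.6 and 14.3 in the pregnant and 69.5, 53.4 and 47.8 in the lactating libraries. It rose without overlap (log2 fold change 2.41 ± 0.32, adjusted p = 0.00652), and was higher in lactation than in pregnancy by 2.15 (adjusted p = 0.0211). The Hmgcs1 promoter is shown because it was the only 1 of the 40 promoters with the sterol regulatory element TCACNCCAC, which stands 137 bases before the start in capitals and was in 1.22% of all promoters.
Hmgcs1 promoter, chr13:119690101-119690400, plus strand: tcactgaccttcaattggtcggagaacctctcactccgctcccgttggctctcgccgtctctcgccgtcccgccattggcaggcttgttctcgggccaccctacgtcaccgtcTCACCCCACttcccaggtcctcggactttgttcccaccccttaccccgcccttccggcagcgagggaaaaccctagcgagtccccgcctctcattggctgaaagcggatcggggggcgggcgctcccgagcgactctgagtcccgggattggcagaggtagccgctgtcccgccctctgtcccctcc
Of the 24 cholesterol synthesis genes tested, 2 rose and 0 fell, against 0.458 and 0.718% of all genes. A fold change above 0 was found for 22 of the 24, against 6011 of all 12672 genes, and the list median was 1.39. The medians were 0.73 and 0.14 for pregnancy against virgin and post-weaning, and 2.50 and 1.92 for lactation. Their share of counts was 0.204, 0.190 and 0.0953% in the lactating libraries, against 0.0624 to 0.0685% in the pregnant, 0.0455 to 0.0634% in the post-weaning and 0.0344 to 0.0391% in the virgin ones. Without Lactating replicate 3, 7 of the 24 rose, 4 without Virgin replicate 3, and Hmgcs1 and Fdps kept their call in all 12 fits that left out 1 library.

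H2-Q7, a nonclassical MHC class I gene with near-identical neighbours, had 30.3, 23.3 and 40.3 CPM in the virgin, 25.9, 24.9 and 32.3 in the post-weaning, 128, 132 and 111 in the pregnant and 94.3, 73.3 and 41.7 in the lactating libraries. Pregnant libraries were highest and the sides did not overlap (log2 fold change 1.66 ± 0.23, adjusted p = 0.0073). It was the 1 member called of 20 MHC class I genes, whose median was 0.27, against 0.458% of all genes called higher. Txn1, the thioredoxin gene, ran at 157 to 329 CPM in the developed and 77.8 to 141 CPM in the resting libraries (log2 fold change 1.01 ± 0.17, adjusted p = 0.016). Fastkd3, which encodes a mitochondrial RNA-binding protein, ran at 55.4 to 117 CPM in the developed and 13.7 to 32.2 CPM in the resting libraries (log2 fold change 1.76 ± 0.23, adjusted p = 0.0063). Ifi27l2a, an interferon-induced gene, ran at 101 to 237 CPM in the developed and 38.5 to 83.4 CPM in the resting libraries (log2 fold change 1.21 ± 0.25, adjusted p = 0.0427). ATP6, the mitochondrially encoded subunit of ATP synthase, rose by 1.17, and Cox17, a copper chaperone for cytochrome oxidase, by 0.79 (adjusted p = 0.0361 and 0.0427).

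Smaller rises were those of Pomp, a proteasome assembly factor gene (0.56), the prolyl isomerase gene Fkbp1a (0.69), the magnesium transporter gene Magt1 (0.70), the calcium-binding protein gene Cib1 (0.70) and the pseudogene Gm9892 (0.81), with adjusted p from 0.0328 to 0.0496. Pomp ran at 189.7 to 242 CPM in the developed and 139.7 to 167 CPM in the resting libraries. Pomp, Fkbp1a, Magt1, Gm9892 and Cox17 lost their call with RLE scaling, which lowered the median over all genes from -0.04 to -0.08, as did Ifi27l2a. H2-Q7 and Fastkd3 kept theirs under each other tool, scaling, filter and model and each left-out library, while Ifi27l2a, ATP6, Cib1 and those 5 lost theirs in 9 to 11 of the 12 fits that left out a library, at adjusted p up to 0.148 (Pomp, without Pregnant replicate 3), and Txn1 in 3 (up to 0.0592 without Post-weaning replicate 3). Over whole pathways, 65 of 69 oxidative phosphorylation genes and 51 of 53 ribosomal protein genes had a fold change above 0, against 6011 of all 12672 genes. Their medians were 0.34 and 0.50. For oxidative phosphorylation the medians against virgin and post-weaning were 0.56 and 0.57 in pregnancy, but 0.08 and 0.08 in lactation. For ribosomal protein genes they were 0.40 and 0.76 in pregnancy, and 0.28 and 0.58 in lactation. In either list 0 were called by edgeR, and 8 and 3 were called higher by DESeq2. DESeq2 called more genes in general, 265 of all 12672 higher.

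Some lists had medians of opposite sign at the 2 developed stages and an averaged contrast near 0. Of 32 inflammatory and NF-kB target genes, 2 fell, against 0.718% of all genes. They were Osm and the NF-kB regulator Nfkbiz (-0.99 ± 0.19, adjusted p = 0.0325), around a list median of -0.13. Against virgin libraries the list median was -1.22 in pregnancy and 0.76 in lactation, and against post-weaning ones -1.05 and 0.90. Of the 32 members 22 were called higher in lactating than in pregnant libraries, against 336 of all 12672 genes. Of 22 chemokine ligand genes 0 were called in the averaged contrast by edgeR, against 1 higher and 2 lower by DESeq2. The chemokine median was -1.35 in pregnancy and 1.67 in lactation against virgin libraries. Of the 22 members 12 were called higher in lactating than in pregnant libraries, against the same 336 of 12672 genes. Cell cycle genes showed the reverse order, with medians of 2.56 in pregnancy and 0.57 in lactation against virgin libraries. In the averaged contrast 42 of 45 members were above 0, against 6011 of all 12672 genes. Of the 45, 0 were called by edgeR and 5 by DESeq2, which called 833 of all 12672 genes. The signs of the averaged inflammatory and chemokine medians turned without Lactating replicate 3 (0.04 and 0.03).

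**Figure D4:**
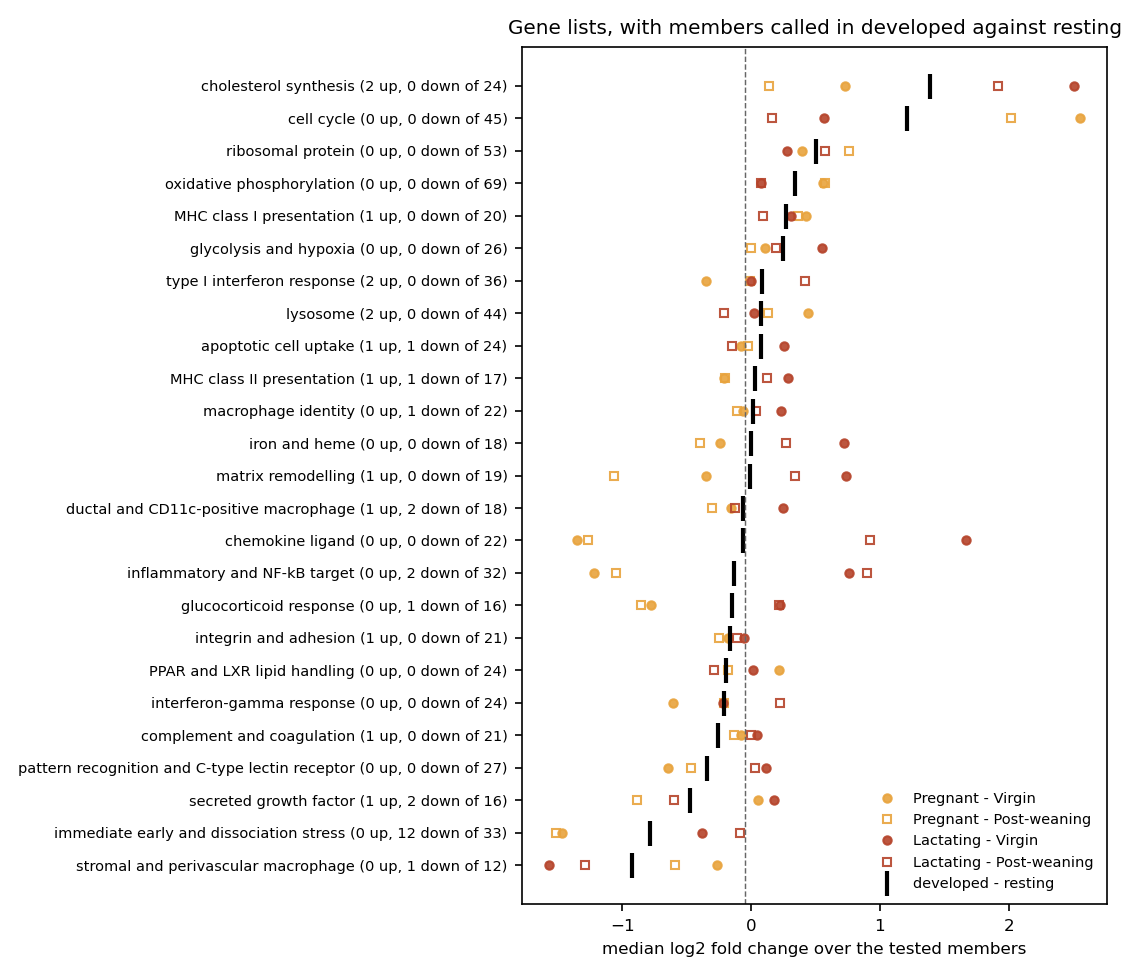
Rows are the gene lists that are not markers of other cell types, with the number of members called higher and lower of those tested, and the x axis is the median log2 fold change over tested members for each stage pair (circles and squares) and for developed minus resting (black bars). The dashed line is the median over all genes, -0.04; immediate early, cholesterol and cell cycle bars stand away from it, and the inflammatory and chemokine rows have pregnancy on the left and lactation on the right.

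Other called genes differed from rest at 1 developed stage only, or not from both resting stages, and are not stage-consistent. Ifi30, the lysosomal thiol reductase gene, had 200.2, 177 and 149 CPM in the virgin, 139, 181 and 239 in the post-weaning, 659, 763 and 679 in the pregnant and 174, 201 and 171 in the lactating libraries, high in the pregnant libraries (log2 fold change 0.98 ± 0.15, adjusted p = 0.0115). Cfp, the complement properdin gene, was also highest in pregnancy, at 631, 700.3 and 474 CPM, against 44.4, 68.7 and 42.6 CPM in lactation (log2 fold change 1.98 ± 0.41, adjusted p = 0.0427). Oasl1, an antiviral gene, was highest in lactation, at 150.4, 265 and 367 CPM, against 20.01, 20.99 and 36.4 CPM in pregnancy (log2 fold change 1.99 ± 0.31, adjusted p = 0.0117). Igf1, the insulin-like growth factor gene, had 0 counts in lactation and 8.90, 10.2 and 14.4 CPM in pregnancy (adjusted p = 0.00331), against 4.71, 11.3 and 8.55 CPM in virgin and 31.96, 63.95 and 41.1 CPM in post-weaning libraries. Pdgfc, a growth factor gene, had 23.02, 19.04 and 22.98 CPM in pregnancy and 0, 0 and 0.527 CPM in lactation (developed against resting -3.13 ± 0.55, adjusted p = 0.0227). Csf1 and the scavenger receptor gene Colec12 had 0 counts in the virgin libraries and counts in all others (adjusted p = 0.0256 and 0.019). The antigen presentation regulator Marchf1 (-1.14 ± 0.24, adjusted p = 0.0482), the matrix protein gene Tgfbi (0.77 ± 0.16, adjusted p = 0.0492) and the integrin gene Itgal (0.84 ± 0.17, adjusted p = 0.0427) were called without stage consistency too.

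Genes of milk-secreting epithelium were among those that rose. Csn2, which encodes beta-casein, had 0, 0 and 0.0731 CPM in the virgin, 39.8, 47.1 and 17.7 in the post-weaning, 3111, 316 and 456 in the pregnant and 286, 243 and 14394 in the lactating libraries. The virgin libraries held 1 count in all, and pooled counts were 198-fold higher on the developed side (adjusted p = 0.0073). Wap, the whey acidic protein gene, had 0 counts at rest and 114, 9.18 and 33.7 CPM in pregnancy and 399, 307 and 14816 CPM in lactation, at least 60780.4-fold above the floor of 3 counts (adjusted p = 0.0274). Glycam1, a secreted mucin-like protein gene, and the tight junction gene Cldn1 were also at 0 counts at rest and at least 2483- and 939-fold higher (adjusted p = 0.0115 and 0.0309). The casein gene Csn1s2a, the fatty acid binding protein gene Fabp3 and the whey protein family gene Wfdc18 had pooled counts 197-, 272- and 23.1-fold higher (adjusted p = 0.0106, 0.00742 and 0.0463). Lactating replicate 3 held most of the pooled counts of Csn2, Csn1s2a and Wap. Without it the folds were 51.4 for Csn2, 88.2 for Csn1s2a, 172 for Fabp3 and at least 2493 for Wap. They were higher without other libraries, at 299 for Csn2 and at least 96704 for Wap without Pregnant replicate 3, 323 for Csn1s2a without Post-weaning replicate 1 and 552 for Fabp3 without Virgin replicate 2. Of 18 milk protein and secretory genes tested 5 rose and 0 fell, against 0.458 and 0.718% of all genes, with 5 of the 18 absent from 1 side. The count of 5 was 9 without Lactating replicate 1, 3 without Post-weaning replicate 1 or 3 and 2 without Post-weaning replicate 2. Csn2, Fabp3 and Glycam1 kept their call whichever library was left out, and Wap lost it in 8 such fits, Wfdc18 in 8, Cldn1 in 9 and Csn1s2a in 1 (adjusted p up to 0.138, Wfdc18 without Post-weaning replicate 2).

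Genes of ductal epithelium were among those that fell. Krt19, a keratin gene of luminal cells, had 57.7, 35.02 and 246 CPM in the virgin, 147, 74.7 and 33.01 in the post-weaning, 26.02, 15.7 and 12.6 in the pregnant and 0, 0 and 0 in the lactating libraries. It fell from the resting side to pregnancy and was at 0 counts in lactation (pooled counts 9.97-fold lower, adjusted p = 0.0063). Krt18 and Krt7, also luminal keratins, were 5.19- and 50.7-fold lower in pooled counts (adjusted p = 0.0427 and 0.0237), Krt7 at 0 counts in lactation. Igfbp5, an insulin-like growth factor binding protein gene of basal epithelium and stroma, had 17.7, 9.27 and 59.6 CPM in the virgin, 259, 81.9 and 59.03 in the post-weaning, 6.56, 2.29 and 8.16 in the pregnant and 0, 0 and 0.0878 in the lactating libraries (adjusted p = 0.00331). Its pooled counts were 18.7-fold lower, or 10.6- to 40.4-fold with 1 library left out. The fitted log2 fold change of -6.80 ± 0.76 rests on lactating libraries near 0 counts, so its size is uncertain. Of 14 basal epithelial genes tested Igfbp5 alone was called, against 0.718% of all genes called lower, with 6 above 0 and 8 below. Basal medians against virgin and post-weaning were -0.60 and -1.35 in pregnancy, and 1.56 and 0.19 in lactation. Ly6d, the water channel gene Aqp5 and the G protein subunit gene Gng12 had pooled counts 79.5-, 38.8- and 66.2-fold lower (adjusted p = 0.0413, 0.0403 and 0.00448). Dcn, the fibroblast proteoglycan decorin, and Cd79b, a B cell receptor subunit gene, were 26.8- and 20.4-fold lower (adjusted p = 0.0427 and 0.041). Of 6 B and plasma cell genes tested Cd79b alone was called, against 0.718% of all genes called lower. The median of that list was 1.71, with 3 of the 6 above 0. Its share of counts was 0.0439 to 0.160% in developed and 0.0569 to 0.0846% in resting libraries. Without Virgin replicate 3 the folds were 6.52 for Krt19, 29.5 for Krt7 and 38.9 for Ly6d. Without Pregnant replicate 3 they were 301 for Krt7, 97.1 for Aqp5 and 49.7 for Ly6d, which reached 157 without Lactating replicate 1. Krt19, Igfbp5 and Gng12 kept their call whichever library was left out, and the other 6 lost theirs in 5 to 10 such fits (adjusted p up to 0.143, Dcn without Pregnant replicate 3). limma-voom called none of Krt7, Krt18, Krt19, Aqp5, Ly6d and Dcn, nor Csn2, Csn1s2a, Wap or Wfdc18, and of the other stage-consistent genes it did not call Ipcef1, 0610040J01Rik and Pomp. With quality weights it called Krt7 and these 3, but not the other 9, nor Fabp3 or Glycam1. DESeq2 gave no adjusted p for Csn2, Csn1s2a and Wap, and called the other 57 of the 60.

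Marker genes of other cell types were summed for each library. The members called below stand against 0.458% of all genes higher and 0.718% lower. Milk protein and secretory epithelium genes took 0.0854, 0.0703 and 0.104% of the counts in virgin and 0.514, 0.286 and 0.262% in post-weaning libraries. They took 1.66, 0.243 and 0.338% in pregnant and 0.278, 0.252 and 8.58% in lactating libraries, so the sides of the summed list overlapped. Of its 18 tested members 5 lay higher in every developed library than in any resting one, against 0.687% of all genes. Csn2, Csn1s2a, Wap and Glycam1 were among them. Luminal genes took 0.0177 to 0.157% at rest and 0.0174 to 0.173% in developed libraries, with 1 of 19 members higher, Wfdc18, and 3 lower. Basal epithelial genes took 0.0146 to 0.0705 and 0.0112 to 0.0957%, and fibroblast genes 0.0112 to 0.0549 and 0.00559 to 0.0479%. Of 14 basal and 14 fibroblast genes 1 each fell, Igfbp5 and Dcn. Endothelial genes were at 0.00340 to 0.0155% and 0.000377 to 0.0740%, with 0 of 16 called by edgeR. Monocyte genes took 0.0540 to 0.0764% at rest and 0.0268 to 0.0397% in developed libraries, without overlap. Of 12 members 1 was called, Nr4a1, which the immediate early list holds too. Nr4a1 makes up a large part of this share, at 239 to 410 CPM in resting libraries. It had 78.6, 54.5 and 73.0 CPM in pregnant and 393, 295 and 153 CPM in lactating libraries. The share was not summed without Nr4a1, so its separation is not read as fewer monocyte transcripts. The part of epithelial, stromal or monocyte RNA in the changes of the genes above was not tested.

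**Figure D5:**
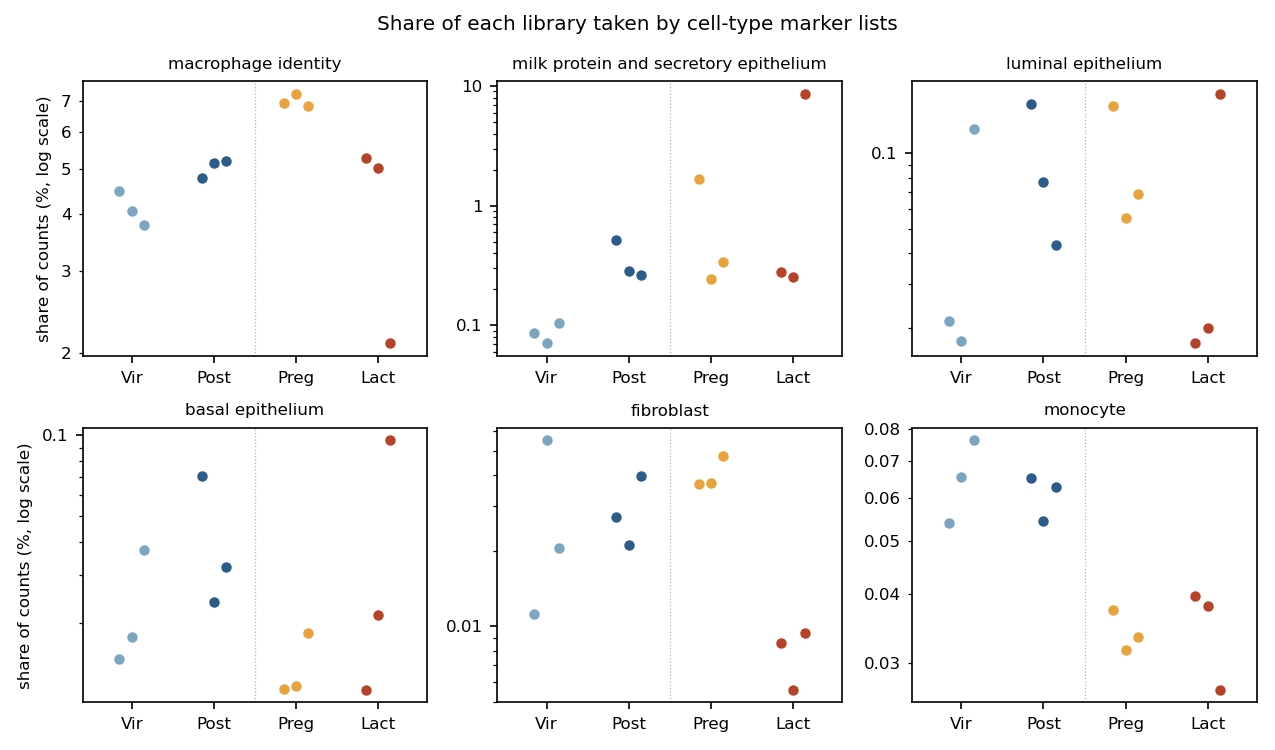
Each panel shows the share of a library's counts taken by 1 list of marker genes, in percent on a log axis, for the 3 libraries of each stage, resting stages left of the dotted line. Lactating replicate 3 is highest for milk and secretory, luminal and basal genes and lowest for macrophage identity and monocyte genes. Only the monocyte panel has no overlap between sides, and its list includes the immediate early gene Nr4a1.

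Promoter letters shared by the members were few. The E-box CACGTG was in 3 of 19 promoters of higher genes and 4 of 21 of lower genes, against 7.24% of all promoters, and the lower ones included Ciart, a circadian repressor gene, and the higher ones Cipc, a CLOCK-interacting repressor gene. The cyclic AMP element TGACGTCA was in 0 and 1 (Wsb1), against 1.88%, the interferon-stimulated response element in 0 and 0, against 3.49%, the PU.1 motif GAGGAAGT in 1 and 1, against 3.28%, and the glucocorticoid receptor motif in 0 and 1, against 0.463%. All were searched on both strands of the 300 bases. Ciart and Cipc had opposite signs. Ciart ran at 17.4 to 48.98 CPM in the developed and 61.6 to 150.3 CPM in the resting libraries (log2 fold change -1.45 ± 0.24, adjusted p = 0.0172), and Cipc at 27.5 to 85.8 CPM in the developed and 7.57 to 22.1 CPM in the resting libraries (log2 fold change 1.73 ± 0.35, adjusted p = 0.0427). Ciart lost its call in 5 and Cipc in 9 of the 12 fits that left out a library (adjusted p up to 0.0609 without Pregnant replicate 1 and 0.126 without Pregnant replicate 3).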

How the data were processed

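RNA of 12 libraries of sorted ductal macrophages, 3 at each of 4 stages, was sequenced in 1 run, per the labels' protocols. Per gene, the authors deposited unnormalized read counts made with featureCounts on mm10, per the submitters' processing notes. The sources used here give no aligner, tool version or strand setting, so overlapping or antisense genes cannot be told apart. Symbols and coordinates came from RefSeq on GRCm38.p6, which matched 25275 of 27179 gene identifiers (the rest held at most 0.825% of a library). No 2 libraries agreed within sampling noise.

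Groups are the 4 labelled stages. The filter filterByExpr, given the stages, left 12672 genes. A robust quasi-likelihood fit in edgeR 4.0.16, run in R 4.3.3, used TMM scaling and 1 mean for each stage. The contrast was the mean of pregnant and lactating minus the mean of virgin and post-weaning libraries. The members and the 36 gene lists were chosen with earlier results of these data known. Named by rule were the 12 largest rises and falls among stage-consistent genes without overlap and at a mean log2 CPM of 3 or more, up to 3 called members of each list with the smallest adjusted p, and 12 followed genes. The other stage-consistent genes are named to account for the 60, of which 1 is not reported here, and those of them described at length, such as Hpgd, Fcgrt, Hes1 and Id3, were chosen after their values were seen. A gene absent from a side is given a bound against 3 counts over that side, and pooled counts weigh deep libraries more than mean CPM does.

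Alternatives were DESeq2 1.42.0, limma-voom (limma 3.58.1), RLE size factors, TMM without milk, epithelial, ribosomal and mitochondrial genes, a replicate block, no filter, or at least 5 CPM in 3 libraries, a model of 2 groups without stage means, a test against a 2-fold change, the 4 stage pairs without a p limit, and leaving out each library. limma-voom with quality weights, and the pooled folds with each library left out, were added after seeing the data. On simulated counts for developed against resting, with 12117 genes, edgeR recovered 6.06% of 2-fold changes (4 of 66), 49.3% of 4-fold ones (33 of 67) and 51.5% of 8-fold ones (34 of 66). Of its 74 calls 3 were false, and none of 68 stage-consistent genes was. In the data 149 genes were called and 60 were stage-consistent, so most simulated calls, but not most real ones, were stage-consistent. The simulated counts thus differ from the data in how the stages vary, and their false share is not carried over to the 60 genes.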

Additional observations from a re-analysis of the deposited data

Results flagged for a closer look

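For each gene named, and for 3 marker lists, the 6 libraries of each side were searched for 1 library far from the others, with a gap above 0.625 of the range. Chance marks about 1 in 20 such groups, and 13 of 170 were marked. In Lactating replicate 3 these were the milk protein and secretory epithelium share, at 8.58% of counts. Wap at 14816 CPM, Csn2 at 14394.5 CPM and Ifi27l2a at 237 CPM were marked there too. In Virgin replicate 3 they were Ly6d at 144 CPM, Krt7 at 78.7 CPM and Gipc2 at 25.4 CPM, all high, and 0610040J01Rik at 23.03 CPM, low. High values also stood out for Igfbp5 in Post-weaning replicate 1 (259 CPM), Fcgrt and Tgfbi in Post-weaning replicate 3 (289 and 858 CPM), Hacd4 in Pregnant replicate 2 (110.0 CPM) and Krt7 in Pregnant replicate 3 (1.41 CPM).

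The 2 developed stages differed from each other for 17 named genes, by edgeR's test of lactating minus pregnant. Among stage-consistent genes the log2 difference was 2.15 for Fdps (adjusted p = 0.0211), 1.40 for Fcgrt (0.0365), 1.88 for Id3 (0.0368), -2.33 for Hes1 (0.00913) and -6.73 for Igfbp5 (0.0126). Igfbp5 was near 0 counts in lactation, so the size of its difference is uncertain. Krt19 had 0 counts in lactation, and its fitted difference of -10.64 depends on the prior count (adjusted p = 0.0061). Among the other called genes lactation was higher for Btg2 (1.35), Nfkbiz (1.14), Dusp1 (1.36), Nr4a1 (2.03), Oasl1 (3.34) and Csf1 (4.68). It was lower for Ifi30 (-1.94), Marchf1 (-1.39), Cfp (-3.54), Pdgfc and Igf1. Pdgfc was near 0 counts in lactation, with a fitted -6.54 of uncertain size, and the 0 counts of Igf1 in lactation give a fitted -9.94. The adjusted p of these 11 other called genes ran from 0.000717 for Igf1 and Ifi30 to 0.048 for Marchf1.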

How the results depend on the processing

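The 149 calls became 833 with DESeq2, 224 with limma-voom, 378 with quality weights, 17 in the model of 2 groups without stage means (all 17 among the 60), and 20 against a 2-fold change. RLE scaling gave 144, TMM without the listed genes 142, no filter 139 and the stricter filter 172. Stage-consistent genes numbered 157 with DESeq2, 127 with quality weights and 127 with the same sign but no p limit on the pairs, against 85 with limma-voom and 56 to 69 under the scaling and filter alternatives. The 4-way test called 17 genes with DESeq2 and 1 with limma-voom. Leaving out 1 library gave 50 to 431 calls and 24 to 145 stage-consistent genes. Calls moved by over 1.5 times without Virgin replicate 2 (98) or 3 (86), Post-weaning replicates 1 to 3 (67, 51 and 54), Pregnant replicates 1 to 3 (69, 50 and 64), and Lactating replicate 1 (225) or 3 (431). Stage-consistent genes did so without Virgin 2 (39) or 3 (29), Post-weaning 1 to 3 (32, 24 and 27), Pregnant 1 to 3 (30, 25 and 33) and Lactating 3 (145). The causes were not tested. Of the 60 genes 24 kept their call whichever library was left out, and 11 of these also kept it under every other tool, scaling, filter and model: Egr1, Exoc6, Fastkd3, Fos, Gng12, H2-Q7, Hpgd, Plxdc2, Procr, Slc38a1 and Trem2. With the replicate number as a block 73 genes were called and 30 were stage-consistent. Libraries of the same number showed little shared deviation between stages (18 correlations from -0.0683 to 0.0726), and 5 of 12 correlated best with their own number. No pairing by number was seen, but with 3 libraries a stage this check cannot exclude it. Only Cd74, not called in any fit named here, changed sign, from -0.18 to 0.0296 with quality weights. Changes near 2-fold were mostly below what 3 libraries a stage could call on simulated counts.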

Other observations

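Genes of the circadian clock were collected after Ciart and Cipc had been seen among the stage-consistent genes. Of 22 such genes 2 were called higher in developed libraries, Bhlhe40 and Cipc, and 1 lower, Ciart, against 0.458 and 0.718% of all genes. As Ciart and Cipc led to the list, nothing is read from this count. The list had a median log2 fold change of -0.34. Bhlhe40, a transcriptional repressor of clock and cytokine genes, had 73.4, 52.1 and 74.6 CPM in the virgin, 171, 210.0 and 181 in the post-weaning, 231, 219 and 259 in the pregnant and 286, 391 and 283 in the lactating libraries. All developed libraries lay above all resting ones (log2 fold change 1.30 ± 0.15, edgeR adjusted p = 0.00331), but pregnancy against post-weaning gave 0.34 (unadjusted p = 0.129). The output gene Dbp was at or below 4.08 CPM in every library, and Tef, of the same family, was lower in all developed libraries without passing the test (log2 fold change -2.73 ± 0.82, adjusted p = 0.154). The period genes Per1, Per2 and Per3 gave -0.04, 0.94 and 0.28, and the core activator genes Arntl and Clock -0.92 and -0.13, none of them called. The sources used here do not state the time of day of collection.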
